A study of Mus musculus with 12 samples.

Results

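The expression of 975 genes was followed in lung CD31+ cells of WT and TET2 KO mice on chow and on high-fat diet (HFD), to ask whether loss of endothelial TET2 had the same effect on both diets. These were the genes with a value in all 12 libraries, 10.4% of the 9338 genes that the 4 deposited comparison tables list. A gene was included where both diets had it in their genotype comparison (461 genes) or both genotypes had it in their diet comparison (611 genes), and 97 genes met both conditions. Each table lists only genes with an unadjusted p under 0.05 in the authors' test, so every member had already been chosen for a difference in both comparisons of a pair. Another 837 genes were listed for the genotypes on chow and not on HFD, 3478 on HFD and not on chow, 6719 for the diets in WT alone and 1017 in TET2 KO alone, and of these only genes that the other pair lists have 12 values.

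The cells were taken from 12 male mice, 3 in each of 4 groups, each mouse giving 1 library. All mice carried floxed Tet2 (TET2 fl/fl) on a C57Bl/6J background and all received tamoxifen (40 mg/kg on 3 days) when 6 to 8 weeks old. WT mice were Cre negative and TET2 KO mice carried Cdh5-CreERT2, a recombinase that tamoxifen activates in cells using the Cdh5 promoter, to remove exon 3 of Tet2. The promoter is meant to limit this to endothelial cells, so other cells that the anti-CD31 beads retain would keep the gene, which was not tested here. Mice of each genotype were then fed chow, with 13% of its energy from fat, or HFD, with 60%, for 20 weeks, and were 30 weeks old when sampled.

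TET2 is an enzyme that oxidizes 5-methylcytosine in DNA, a step towards removing the methyl mark, and its loss in blood cells is known for raised inflammatory gene expression. Lung endothelial cells line the capillaries, arteries and veins and are covered by a glycocalyx. Its sugar chains include hyaluronan, which hyaluronidases cut, and sulfated and sialylated chains, which other enzymes trim. When 2 factors are crossed, the effect of one can depend on the other, and the interaction measures this as the log2 difference between TET2 KO and WT on HFD minus that on chow. The same number is the log2 change with HFD in TET2 KO minus that in WT. A negative interaction therefore describes a gene whose KO effect is lower on HFD than on chow.

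Libraries held between 36.7 and 56.8 M reads on genes (median 39.6 M), and 946 of the 975 genes had a mean of at least 10 normalized counts, which are counts divided by 1 size factor for each library. Tet2 itself was listed only for HFD against chow in WT, at 3308, 3577 and 3575 normalized counts on chow and 4226, 4405 and 4676 on HFD. It has no value in the TET2 KO libraries, so their genotype rests on the labels. All 18 endothelial markers were listed in at least 1 table and 4 of them (Ramp2, Sox18, Emcn and Calcrl) in all 12 libraries. Their summed normalized counts were 10870, 11097 and 22069 in WT on chow, 48750, 19645 and 16556 in TET2 KO on chow, 57396, 44585 and 30651 in WT on HFD, and 30295, 17304 and 13326 in TET2 KO on HFD. Replicate 1 of TET2 KO on chow thus stood apart from the other 2 of its group for these markers, and the interactions of the endothelial, arterial and glycan genes described in full are also given without it. In bulk RNA, fewer cells of a type and less RNA per cell cannot be told apart. B cell, neutrophil and platelet or red cell markers had no member with 12 values.

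Loss of TET2 went with opposite changes on the 2 diets in nearly all genes listed for both. Of the 461 genes, 225 were higher in TET2 KO on chow and lower in TET2 KO on HFD, 232 were lower in TET2 KO on chow and higher on HFD, and 4 went the same way on both diets. The 457 crossing genes made up 99.1% of the 461. The 2 comparisons share no library, and the listing fixed the size of each difference but not whether their signs matched. The signs were opposite in 456 or 457 genes whichever single library was left out.

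**Figure D1:**
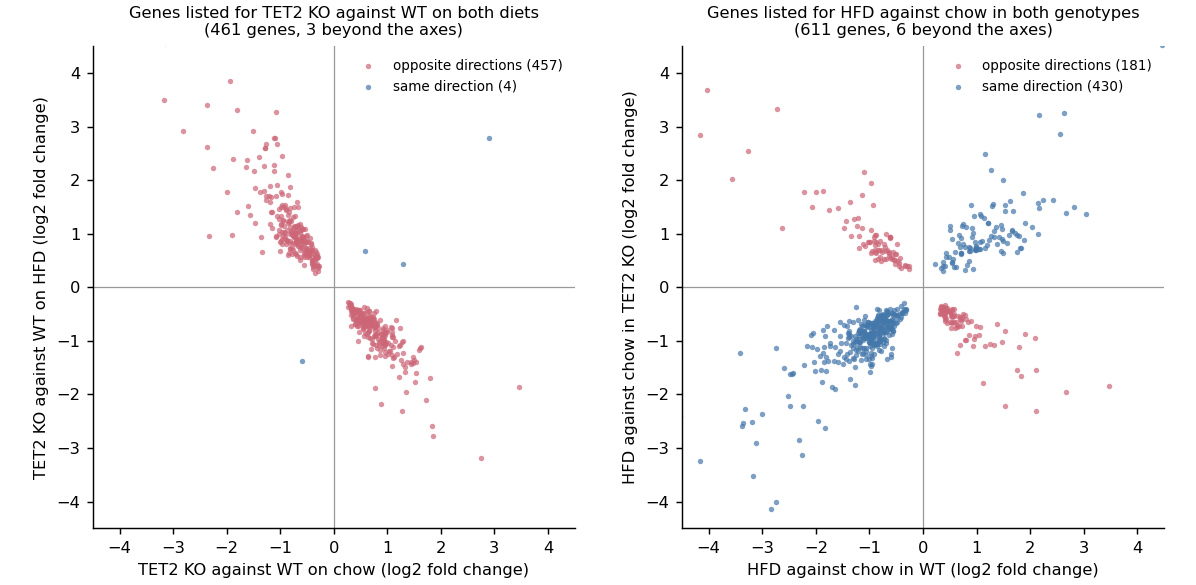
Left, the log2 fold change of TET2 KO against WT on HFD (y axis) against that on chow (x axis) for the 461 genes listed in both comparisons, 457 of which lie in the quadrants of opposite sign. Right, the log2 fold change of HFD against chow in TET2 KO (y axis) against that in WT (x axis) for 611 genes, of which 430 changed the same way and 181 the opposite way. Each point is 1 gene, and 3 and 6 genes lie beyond the axes.

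With the size factors used here, the 2 TET2 KO groups lay between the 2 WT groups in most of these genes. Among the 225 genes that were higher in TET2 KO on chow, the median log2 difference between TET2 KO and WT was 0.71 on chow and -0.74 on HFD. The median change with HFD was 1.20 in WT and -0.33 in TET2 KO. Both TET2 KO means fell between the WT chow and WT HFD means in 184 of the 225 genes, and 158 followed the order WT chow, TET2 KO HFD, TET2 KO chow, WT HFD from low to high. Among the 232 genes of the opposite kind, the median difference between the genotypes was -0.76 on chow and 0.96 on HFD, with a median HFD change of -1.15 in WT and 0.51 in TET2 KO. Both TET2 KO means lay between the WT means in 159 of them, and 144 had the order WT HFD, TET2 KO chow, TET2 KO HFD, WT chow. These counts depend on the scaling of the libraries. A gene of the 232 can have both TET2 KO means between the WT means only if its average HFD change is negative. That average was positive in 36 of them, in 114 with size factors made by TMM and in 118 with those of DESeq2. In the 225 genes, where it must be positive, it was so in 201, 220 and 221.

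The pattern could be followed library by library as the median level of each gene set, centred on the mean of the 12 libraries. For the 225 genes this median was -0.68, -0.77 and -0.23 in WT on chow, 0.48, -0.08 and -0.01 in TET2 KO on chow, 0.75, 0.48 and 0.46 in WT on HFD, and -0.18, -0.24 and -0.14 in TET2 KO on HFD, on a log2 scale. For the 232 genes it was 0.50, 0.55 and 0.50, then -0.35, -0.02 and -0.08, then -0.69, -0.53 and -0.58, and 0.58, 0.33 and -0.13 in the same order of groups. Replicate 1 of TET2 KO on chow lay furthest from WT on chow in both sets, and replicate 3 of TET2 KO on HFD was the member of its group nearest to WT on HFD in the second. The median interaction of the 225 genes was -1.48, and -1.22 without replicate 1 of TET2 KO on chow. That of the 232 genes was 1.74, and 1.66 without this library.

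**Figure D2:**
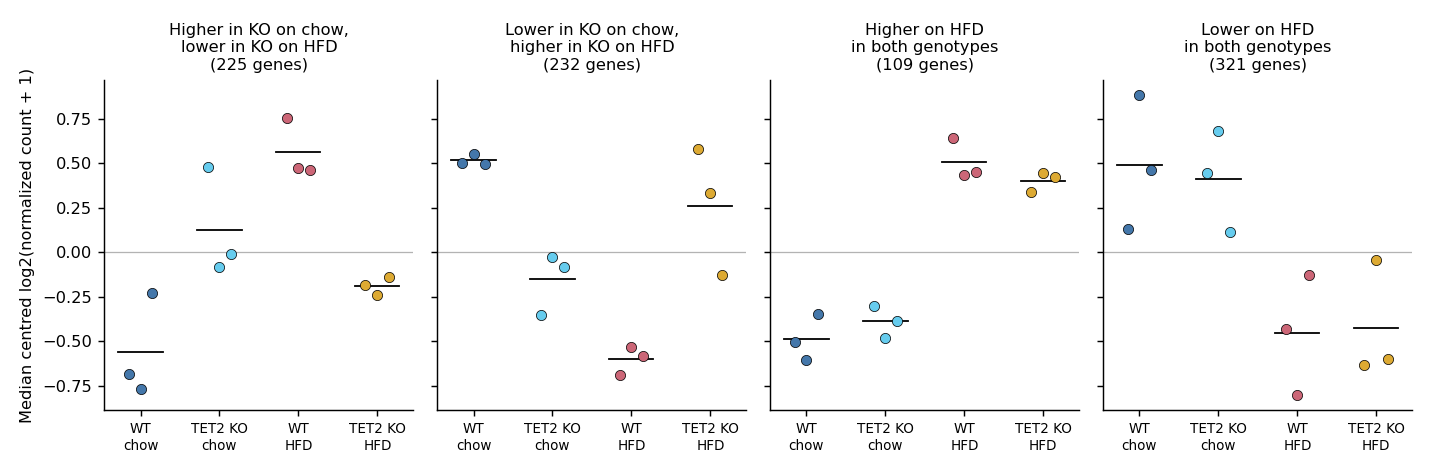
Median centred log2(normalized count + 1) of 4 gene sets (y axis) in each of the 12 libraries, grouped by genotype and diet (x axis). Points are libraries and bars are group means. In the first 2 panels the means of the 2 WT groups are at opposite ends with both TET2 KO means between them, while in the last 2 panels the libraries part by diet.

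The interaction term passed an adjusted p of 0.05 in edgeR's quasi-likelihood test in 541 of the 975 genes (55.5%), 268 positive and 273 negative. Since the comparisons that make up this term also chose the genes, the count describes them and is read no further. It was 453 among the 461 genes listed for both genotype comparisons and 184 among the 611 listed for both diet comparisons. On each of the diets all 3 libraries of one genotype, whichever was higher, lay above all 3 of the other in 256 of the 975 genes (26.3%). Of these genes, 102 were among the 225 and 129 among the 232. The quartiles of the interaction were -1.99 and -1.10 in the 225 genes and 1.33 and 2.38 in the 232.

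The 2 crossing sets differed in the kind of gene they held. Of the 225 genes, 216 were protein coding (96.0%), with a median of 4.75 FPKM. Of the 232 genes, 143 were protein coding (61.6%), 36 were unconfirmed transcripts of the annotation (type TEC), 20 antisense and 11 lincRNA, and the median was 1.57 FPKM. Whether reads were counted by strand is not given in the sources used here, so an antisense gene and its partner cannot be told apart.

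Endothelial genes stood in the first of these sets. Of the 4 endothelial markers with 12 values, Ramp2, Sox18 and Calcrl were higher in TET2 KO on chow and lower on HFD, and so were all 3 capillary or arterial markers, Gja4, Gja5 and Ednrb. The median interaction of the 4 endothelial markers was -2.17 and that of the 3 capillary or arterial markers -1.46, against 0.05 over all 975 genes. Without replicate 1 of TET2 KO on chow these were -1.51 and -1.45.

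Sox18 (chr2:181669836-181671640, mm10), a transcription factor of blood and lymph vessel formation, was at 764, 761 and 1301 normalized counts in WT on chow, 4792, 1207 and 1688 in TET2 KO on chow, 6451, 3464 and 3378 in WT on HFD, and 2377, 1762 and 943 in TET2 KO on HFD. The TET2 KO and WT libraries overlapped on chow, where replicate 1 of TET2 KO was the highest, and did not overlap on HFD, where all WT libraries were higher. Its log2 difference between TET2 KO and WT was 1.44 ± 0.51 (SE) on chow and -1.39 ± 0.51 on HFD, an interaction of -2.83 ± 0.72, or -2.01 without replicate 1 of TET2 KO on chow. Ramp2, which with Calcrl forms the receptor for adrenomedullin, measured 2066, 2096 and 5335 normalized counts in WT on chow, 12681, 4443 and 4413 in TET2 KO on chow, 13532, 8815 and 8036 in WT on HFD, and 6017, 3476 and 3265 in TET2 KO on HFD. Again the genotypes overlapped on chow alone, and the interaction was -2.43 ± 0.69, or -1.74 without that library. Calcrl, the other subunit of this receptor, had an interaction of -1.91 ± 0.66, or -1.29 without it, with overlap of the genotypes on both diets.

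Gja4 (chr4:127311421-127314039), the gap junction protein connexin 37 of arterial endothelium, stood at 273, 327 and 313 normalized counts in WT on chow, 1226, 333 and 377 in TET2 KO on chow, 3550.3, 1746 and 1641 in WT on HFD, and 989.9, 927 and 604 in TET2 KO on HFD. WT libraries on HFD were all above every other library, and the genotypes were apart on both diets, narrowly so on chow. Its HFD change was 2.93 ± 0.50 in WT and 0.38 ± 0.46 in TET2 KO, and the interaction moved from -2.55 to -1.68 without replicate 1 of TET2 KO on chow. Vegfc, a growth factor for lymphatic vessels and a member of the Notch and VEGF list, was measured at 199, 228 and 278 normalized counts in WT on chow, 648, 392 and 333 in TET2 KO on chow, 1284, 1188 and 892 in WT on HFD, and 763, 707 and 565 in TET2 KO on HFD. The genotypes were apart on both diets in opposite directions, with log2 differences of 0.96 ± 0.27 on chow and -0.72 ± 0.26 on HFD, and an interaction of -1.69 that was -1.35 without the same library. Ednrb, the endothelin receptor of lung capillary endothelium and the 1 member of the vasoactive list, had an interaction of -1.46 ± 0.54, and Gja5, connexin 40, one of -1.29 ± 0.46, and these were -1.45 and -0.89 without it.

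Pecam1 and Cdh5 were listed in 9 libraries, none of them from TET2 KO on chow. Pecam1, which encodes CD31, was at 11393, 9191 and 20472 normalized counts in WT on chow, 37509, 33435 and 22442 in WT on HFD, and 24347, 17122 and 17096 in TET2 KO on HFD. Cdh5, whose promoter drives the Cre, was at 9781, 8226 and 20413, then 50200, 38515 and 25882, and then 27522, 14223 and 14651. Both had their highest mean in WT on HFD and their lowest in WT on chow, and the share of endothelial cells in each library, as a part of the crossing pattern, was not tested.

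Genes of glycosaminoglycan and glycan metabolism were among the crossing genes. Of the 12 genes that the study lists for this function, 8 had 12 values, all of them through the genotype pair. In that pair 457 of the 461 genes crossed (99.1%), 225 of them higher in TET2 KO on chow and lower on HFD. All 8 were higher in TET2 KO on chow and lower on HFD. The list was chosen by the study on these samples, so this count is not independent evidence of its direction. The members were the hyaluronidases Hyal1 and Hyal2, which cut hyaluronan, the lysosomal enzymes Sgsh and Hgsnat, which break down heparan sulfate, the sialyltransferases St3gal2, St3gal4 and St3gal6, and B3gnt3, which extends sugar chains that can be sulfated. Their interactions lay between -1.88 and -1.04 with a median of -1.17. Without replicate 1 of TET2 KO on chow the median was -1.06, and the number of called interactions went from 7 to 5. In the 225 genes of this crossing set it went from 222 to 152, and 55.5% of all 975 genes were called with every library. Nothing about glycan genes is read from these calls.

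Hyal2 (chr9:107567945-107572779) was at 842, 1031 and 1759.5 normalized counts in WT on chow, 3337, 1556 and 1511 in TET2 KO on chow, 4536, 2584 and 2475 in WT on HFD, and 2473, 1303 and 1128 in TET2 KO on HFD. On HFD the highest TET2 KO library and the lowest WT library differed by about 1 count, and on chow the genotypes overlapped. The log2 difference between TET2 KO and WT was 0.82 ± 0.42 on chow and -0.97 ± 0.42 on HFD, an interaction of -1.79 that was -1.31 without replicate 1 of TET2 KO on chow. B3gnt3 was measured at 479, 555 and 772 normalized counts in WT on chow, 1714, 852 and 570.4 in TET2 KO on chow, 1595, 1311 and 1046 in WT on HFD, and 758, 603 and 511 in TET2 KO on HFD, so that WT was clear of TET2 KO on HFD and overlapped it on chow. Its interaction was -1.88 ± 0.51, or -1.32 without that library. The HFD change of Sgsh was 1.09 ± 0.22 in WT and 0.05 ± 0.22 in TET2 KO.

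Interferon-response genes were the largest list with 12 values, 23 of 68, and most of them followed diet. The 17 that were listed for diet with the same direction in both genotypes were all higher on HFD, where 109 of the 430 such genes were. Another 5 (Ifi44, Ifit1bl1, Gbp5, Oasl2 and Ifi27) were higher in TET2 KO on chow and lower on HFD, and Slfn8 was higher in TET2 KO on both diets. The median interaction of the 23 genes was -0.63, with 19 negative, against 0.05 over all 975 genes. The number negative was 16 with TMM scaling and 17 without replicate 1 of TET2 KO on chow, and the median -0.52 and -0.45.

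Promoters of 4 of these genes, all with a match, are shown because most promoters found for the list held a sequence feature that the rule did not use. The capitals mark TTTCNNTTTC or its reverse complement GAAANNGAAA, the core of the interferon-stimulated response element, searched on both strands, with overlapping matches run together. It was present in 12 of the 18 promoters found for the 22 protein-coding members (66.7%) and in 3.40% of all 17492 protein-coding promoters of the same length. The promoters of Ifi44, Oasl2, Oasl1, Cmpk2, Irf7 and Xaf1 had no match. Sequences are from RefSeq on GRCm38.p6 and run from 250 bases before to 50 after the transcript start that RefSeq gives, 5′ to 3′ on the strand of the gene. The deposited tables use another annotation, in which Gbp5 starts further upstream, so that its window lies inside the gene as they give it. Ifit3 is at chr19:34583279-34583578 on the plus strand, Isg15 at chr4:156200769-156201068 on the minus strand, Rsad2 at chr12:26456403-26456702 on the minus strand and Gbp5 at chr3:142496684-142496983 on the plus strand.
Ifit3: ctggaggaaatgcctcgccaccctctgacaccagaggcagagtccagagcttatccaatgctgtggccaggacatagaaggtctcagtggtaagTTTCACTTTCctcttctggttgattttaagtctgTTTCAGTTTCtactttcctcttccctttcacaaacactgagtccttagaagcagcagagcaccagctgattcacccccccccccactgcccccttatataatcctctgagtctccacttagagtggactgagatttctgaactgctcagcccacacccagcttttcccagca
Isg15: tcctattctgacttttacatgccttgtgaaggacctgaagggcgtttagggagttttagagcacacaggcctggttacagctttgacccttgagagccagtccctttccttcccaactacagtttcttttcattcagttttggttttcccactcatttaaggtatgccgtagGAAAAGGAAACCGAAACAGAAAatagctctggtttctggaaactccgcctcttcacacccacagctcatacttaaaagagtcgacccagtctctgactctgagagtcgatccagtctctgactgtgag
Rsad2: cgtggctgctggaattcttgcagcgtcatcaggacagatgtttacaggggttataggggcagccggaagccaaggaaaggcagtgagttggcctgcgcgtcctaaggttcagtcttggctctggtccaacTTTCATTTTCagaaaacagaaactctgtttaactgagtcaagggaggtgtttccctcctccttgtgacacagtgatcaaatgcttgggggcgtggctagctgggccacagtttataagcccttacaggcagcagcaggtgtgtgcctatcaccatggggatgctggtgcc
Gbp5: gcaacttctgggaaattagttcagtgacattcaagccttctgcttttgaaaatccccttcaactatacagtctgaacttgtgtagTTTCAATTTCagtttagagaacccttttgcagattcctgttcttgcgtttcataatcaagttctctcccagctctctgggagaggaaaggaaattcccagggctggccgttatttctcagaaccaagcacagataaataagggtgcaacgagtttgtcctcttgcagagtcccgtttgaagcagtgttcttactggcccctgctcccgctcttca
The first 3 belong to genes higher on HFD in both genotypes and the last to a gene of the crossing set. A match describes the letters in this window and is no evidence of binding. Promoters were found for under 80% of the protein-coding genes in the crossing sets and in the sets that followed diet, so no such share is given for them.

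Ifit3, an antiviral protein that binds foreign RNA together with other IFIT proteins, was at 132, 89.3 and 200.4 normalized counts in WT on chow, 376, 162 and 176 in TET2 KO on chow, 1285, 824 and 583 in WT on HFD, and 482, 729 and 650.5 in TET2 KO on HFD. Every HFD library was above every chow library in both genotypes. The HFD change was 2.67 ± 0.42 in WT and 1.38 ± 0.40 in TET2 KO. Rsad2, the antiviral enzyme viperin, changed by 1.60 ± 0.36 and 0.97 ± 0.36 in the same order, and the ubiquitin-like modifier Isg15 by 0.59 ± 0.22 and 0.65 ± 0.22. The transcription factors Irf7 and Stat2, which carry the interferon signal to these promoters, changed by 0.72 ± 0.21 and 0.63 ± 0.21 and by 0.37 ± 0.17 and 0.31 ± 0.17. All of these had been chosen for their change with diet, so no test is given for it.

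Ifi44, an interferon-induced protein, was at 36.9, 33.5 and 81.2 normalized counts in WT on chow, 234, 65.3 and 60.4 in TET2 KO on chow, 717, 421 and 248 in WT on HFD, and 135, 232 and 172 in TET2 KO on HFD. WT libraries on HFD were the highest, TET2 KO on HFD lay below them without overlap, and on chow the genotypes overlapped. Its interaction was -2.61 ± 0.80, or -1.68 without replicate 1 of TET2 KO on chow. Its average change with HFD, which was not among the differences that chose it, was 1.89 ± 0.41 with an edgeR adjusted p of 0.00586. This adjustment, here and for the single genes below, ran over all 975 genes. As 611 of these were listed for diet, it is lenient for genes of the genotype pair. Gbp5 (chr3:142493978-142522344), a guanylate-binding protein that acts in inflammasome responses, was at 321, 285 and 366 normalized counts in WT on chow, 729.9, 442 and 527 in TET2 KO on chow, 779.8, 1076 and 755 in WT on HFD, and 428, 620.3 and 605 in TET2 KO on HFD. TET2 KO was clear of WT on both diets, above it on chow and below it on HFD, with an interaction of -1.46 ± 0.34 and an average HFD change of 0.69 ± 0.17 (adjusted p 0.00774). Oasl2, an oligoadenylate synthetase-like protein, had an interaction of -1.40 ± 0.49 and an average HFD change of 1.03 ± 0.25 (adjusted p 0.00707), while Ifi27 and Ifit1bl1 did not pass for diet (adjusted p 0.449 and 0.291).

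**Figure D3:**
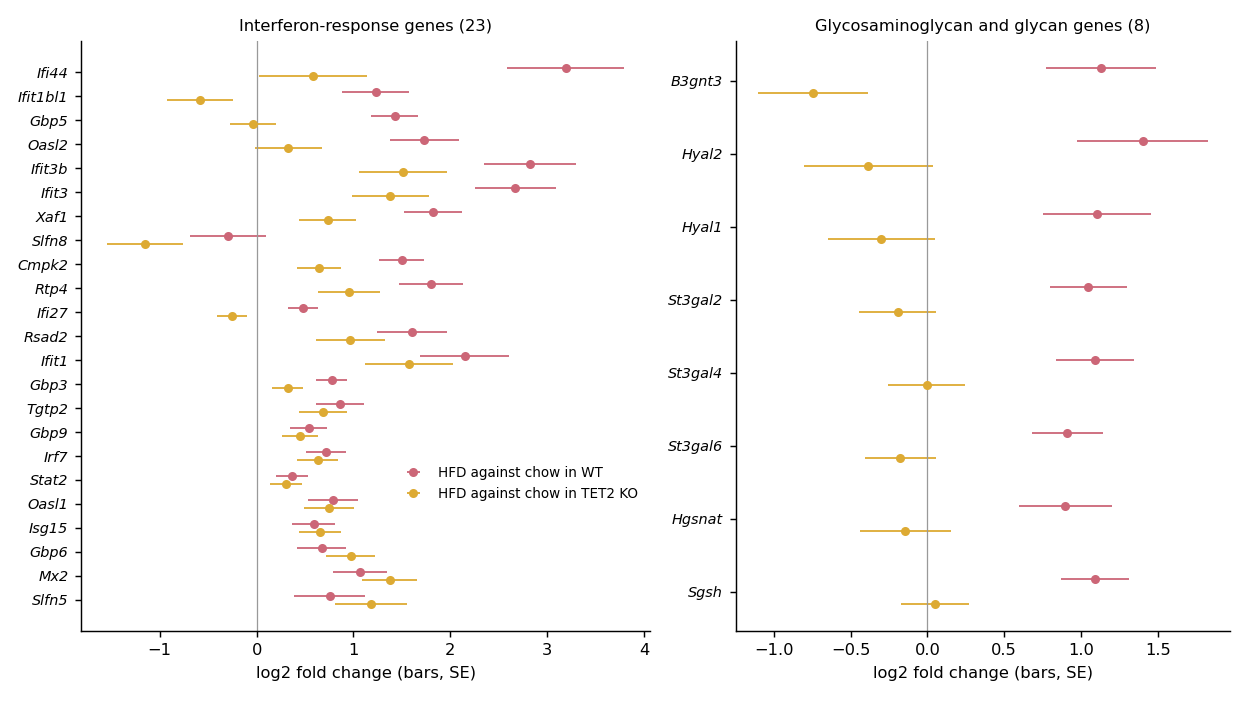
Log2 fold change of HFD against chow (x axis) in WT and in TET2 KO for the 23 interferon-response genes (left) and the 8 glycosaminoglycan and glycan genes (right) with 12 values, 1 gene per line. Points are edgeR estimates from 3 libraries per group and bars their SE. All 8 genes on the right are near 1 in WT and near or below 0 in TET2 KO, and on the left the 17 genes listed for diet are above 0 in both.

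The 4 genes that went the same way on both diets were few enough to name. Slfn8, a Schlafen family gene that interferon induces, measured 336, 239.9 and 252 normalized counts in WT on chow, 720.2, 253 and 1067 in TET2 KO on chow, 230.2, 251 and 195 in WT on HFD, and 271, 358 and 288 in TET2 KO on HFD. TET2 KO was above WT without overlap on HFD, and on chow 1 TET2 KO library lay within the WT range. The differences were 1.30 ± 0.39 on chow and 0.44 ± 0.39 on HFD, and the average HFD change of Slfn8 was -0.72 ± 0.28 (edgeR adjusted p 0.0404), a call that was lost in 14 of 19 alternatives, TMM and DESeq2 scaling among them. Dynlt1c, a dynein light chain of a family of near-identical copies, whose counts are therefore uncertain, had differences of 0.59 ± 0.29 and 0.67 ± 0.29. The processed pseudogene Gm7514 had group means of 1.76 in WT and 13.8 in TET2 KO on chow and 0.835 and 6.89 on HFD. Loxl2, a lysyl oxidase-like enzyme that cross-links collagen, was lower in TET2 KO, with differences of -0.59 ± 0.54 and -1.37 ± 0.54. Its level was 132, 205 and 176 normalized counts in WT on chow, 102, 129 and 109 in TET2 KO on chow, 149, 106 and 604 in WT on HFD, and 90.0, 157 and 83.3 in TET2 KO on HFD, and the group mean of WT on HFD was set by 1 library.

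Beyond the lists, the genes with the largest interactions were named by size, 8 in each direction, among genes with a called interaction and at least 50 normalized counts in the highest group. The 8 negative ones were Wfdc17, Tril, Stox1, Ighv12-3, Sema3a, Tox2, Ankrd63 and Grrp1, from -3.59 to -2.89. Tox2, an HMG-box transcription factor listed in both pairs, was at 185, 181 and 426 normalized counts in WT on chow, 1507, 379 and 392 in TET2 KO on chow, 1193, 561 and 999 in WT on HFD, and 443, 337 and 274 in TET2 KO on HFD. WT exceeded TET2 KO on HFD in every library, and on chow replicate 1 of TET2 KO was far above the rest. Without that library the interaction of Tox2 was -1.93. Wfdc17, which carries a WAP domain, was at 139, 133 and 175 normalized counts in WT on chow, 452, 284 and 349.8 in TET2 KO on chow, 108, 158 and 1305 in WT on HFD, and 61.3, 103 and 153 in TET2 KO on HFD, and its high WT mean on HFD came from replicate 3, without which its interaction was -1.61. Sema3a, a secreted guidance cue for axons and vessels, changed with HFD by 2.09 ± 0.46 in WT and -0.95 ± 0.45 in TET2 KO.

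Among the 8 with the largest positive interaction were Trim69, Ctcflos, Aoc3, Atcay, Elavl3, Adamts4, Tex29 and Abcg4, from 4.35 to 3.29. Adamts4, a protease that cleaves aggrecan and versican in the extracellular matrix, was at 67.2, 77.0 and 77.0 normalized counts in WT on chow, 29.1, 23.8 and 26.0 in TET2 KO on chow, 20.3, 29.2 and 10.5 in WT on HFD, and 192, 64.0 and 17.3 in TET2 KO on HFD. On chow WT was above TET2 KO without overlap, and on HFD 2 of 3 TET2 KO libraries were above all of WT. Ctcflos, annotated as antisense, was at 116, 88.2 and 43.3 normalized counts in WT on chow, 17.5, 46.5 and 49.97 in TET2 KO on chow, 4.36, 6.26 and 6.32 in WT on HFD, and 25.7, 38.8 and 53.0 in TET2 KO on HFD. All WT libraries on HFD were below every other library, and its average change with HFD was -1.91 ± 0.36 (adjusted p 0.00447). Trim69, an E3 ubiquitin ligase, was at 125, 161 and 294 normalized counts in WT on chow, 63.1, 115 and 96.8 in TET2 KO on chow, 18.2, 40.7 and 44.3 in WT on HFD, and 739.7, 221 and 26.0 in TET2 KO on HFD, so that its TET2 KO mean on HFD rested largely on replicate 1. Aoc3, an amine oxidase that also serves in leukocyte adhesion, had an HFD change of -3.87 ± 0.83 in WT and 0.02 ± 0.72 in TET2 KO, and its average HFD change was -1.93 ± 0.55 (adjusted p 0.0116).

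**Figure D4:**
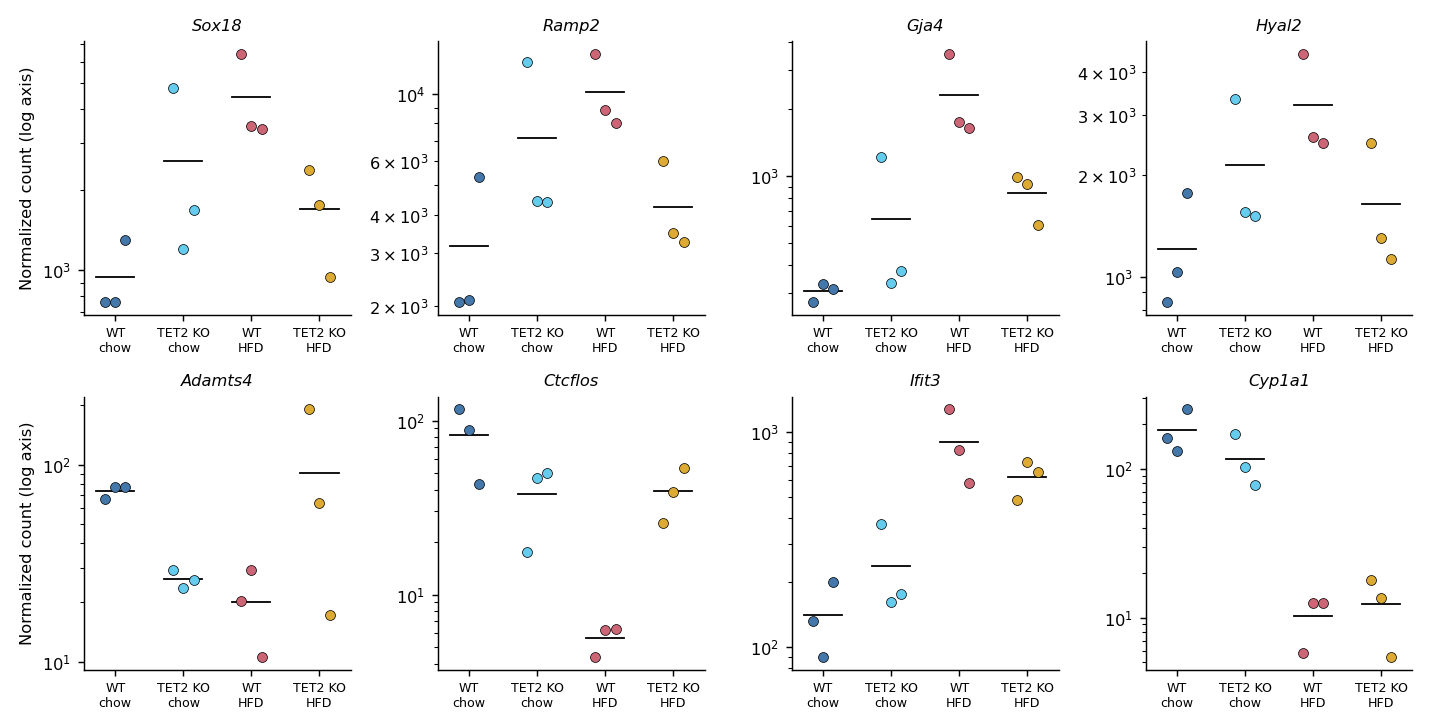
Normalized counts (log y axis) of 8 genes in each of the 12 libraries, grouped by genotype and diet (x axis), with points for libraries and bars for group means. Sox18, Ramp2, Gja4 and Hyal2 have their highest mean in WT on HFD and their lowest in WT on chow, Adamts4 and Ctcflos their lowest in WT on HFD, and Ifit3 and Cyp1a1 part by diet in both genotypes.

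Markers of other cell types appeared in both kinds of crossing. Ccr2, the chemokine receptor of inflammatory monocytes, was listed in both pairs at 1669, 1224 and 1889 normalized counts in WT on chow, 2676, 3585 and 3417 in TET2 KO on chow, 3075, 4509.8 and 4850.3 in WT on HFD, and 1024, 2443 and 2554 in TET2 KO on HFD. The genotypes did not overlap on either diet, with TET2 KO higher on chow and lower on HFD and an interaction of -2.06 ± 0.46. The mesothelial genes Msln and Muc16 and the secreted airway protein Bpifa1 went the other way. Msln was at 131, 423 and 24.3 normalized counts in WT on chow, 50.5, 48.5 and 15.6 in TET2 KO on chow, 181, 57.4 and 80.1 in WT on HFD, and 124, 276 and 223 in TET2 KO on HFD, with overlap between the genotypes on both diets and an interaction of 3.28 ± 1.14, or 1.98 without replicate 2 of WT on chow. Muc16 had an interaction of 2.92 ± 0.72 and Bpifa1 one of 2.67 ± 0.81, while Krt19, the third mesothelial member, was lower on HFD in both genotypes. Cd8a, which marks cytotoxic T cells, had an HFD change of 0.42 ± 0.23 in WT and -0.62 ± 0.23 in TET2 KO. The part of these cells in the crossing genes was not tested. Zbtb16, a transcription factor that glucocorticoids induce, was also in the first crossing set, with an HFD change of 1.54 ± 0.60 in WT and -0.70 ± 0.59 in TET2 KO. Its WT libraries overlapped, at 873, 1309 and 1632 normalized counts on chow and 5672, 875 and 4528 on HFD. In TET2 KO on chow, replicate 1 was at 4784 against 1377 and 1763. Its interaction was -2.24, or -1.49 without that library.

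The HFD change averaged over both genotypes was tested in the 461 genotype-pair genes. With equal spread in the groups, this average does not depend on the differences that chose them. The spread between libraries, which the test divides by, also entered that choice, so its p-values are conditional on it. A call does not show a change in both genotypes. Aoc3 passed with an HFD change of -3.87 in WT and 0.02 in TET2 KO. The average HFD change passed an adjusted p of 0.05 in 120 of them (26.0%), where 550 of all 975 genes (56.4%) passed. Most of those 550 were listed for diet and entered the same adjustment, and with the 461 genes fitted and adjusted alone the count was 65, 32 higher and 33 lower. Of the 120 genes, 65 were higher and 55 lower on HFD, where 17.8% of all 975 genes were called higher and 38.6% lower, and 64 of the 65 belonged to the 225 genes and 54 of the 55 to the 232, so that nearly all called genes of each crossing set went with the direction of their WT groups. At an unadjusted p under 0.05 the count was 158 of 461, against 60.3% of all 975 genes. The split into higher and lower depended on the scaling of the libraries. With size factors made by TMM it was 141 higher and 27 lower, and with those of DESeq2 over these genes 155 higher and 28 lower. The median HFD change of all 975 genes was -0.16 in the main scaling and 0.09 and 0.11 in these.

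In the 611 diet-pair genes, by contrast, no average difference between TET2 KO and WT passed in edgeR (0 of 611, and 0% of all 975). At an unadjusted p under 0.05 there were 16, against 21 of 975 (2.15%), and DESeq2 called 1. Mid1 had the lowest adjusted p (0.202), with a log2 difference of -0.79 ± 0.16, and group means of 709 in WT and 293 in TET2 KO on chow and 529 and 430 on HFD. It was named after its value was seen. Over the 611 genes the median size of the average genotype difference was 0.12.

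HFD changed most of the diet-pair genes the same way in both genotypes. Of the 611 genes, 109 were higher and 321 lower on HFD in both, 91 were higher in WT and lower in TET2 KO, and 90 the reverse. The median HFD changes were 1.09 in WT and 0.90 in TET2 KO for the 109 genes, and -0.96 and -0.88 for the 321. All 430 had been listed for a change with diet in both genotypes. That choice favours changes of similar size and libraries that part by diet, so these medians and the next counts are description only. All 3 HFD libraries were clear of all 3 chow libraries in both genotypes in 53 of the 109 and 136 of the 321 genes, against 334 of all 975 (34.3%). An interaction was called in 3 and 1 of these genes, against 55.5% of all 975, and nothing is read from this, since a shared sign itself keeps the interaction small.

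Genes higher on HFD in both genotypes included the fibroblast markers beside the interferon list. Mfap4, a glycoprotein of elastic fibers, was at 43.5, 35.7 and 33.8 normalized counts in WT on chow, 54.4, 22.8 and 6.25 in TET2 KO on chow, 490.1, 71.0 and 139 in WT on HFD, and 225, 237 and 339 in TET2 KO on HFD, higher on HFD in every library. All 3 fibroblast members with 12 values, of 15 on the list, were higher. The average changes of Pdgfra, Pdgfrb and Tcf21 were 1.22 ± 0.47, 0.81 ± 0.22 and 1.94 ± 0.57. Their median was 0.82 without replicate 1 of WT on HFD. Libraries of the diets overlapped in both genotypes for Pdgfra and Tcf21 and in TET2 KO for Pdgfrb. The 3 together summed to between 187 and 258 normalized counts on chow and between 323 and 603 on HFD. Il17a, the cytokine of certain T cells, changed by 1.62 ± 0.47 in WT and 1.62 ± 0.47 in TET2 KO, and the granzyme Gzma by 2.03 ± 0.52 and 1.13 ± 0.50. Wnt6, a secreted Wnt ligand, and Angpt1, a ligand of the endothelial receptor TIE2, had average changes of 2.03 ± 0.38 and 0.95 ± 0.21, Emcn, an endothelial sialomucin, one of 1.36 ± 0.22, and Bgn, a matrix proteoglycan, one of 0.93 ± 0.30. The class I antigens H2-K1 and H2-Q4, whose reads can be split between near-identical copies, were at 0.39 ± 0.12 and 0.50 ± 0.12, while Tapbp, the tapasin that loads peptides onto them, belonged to the first crossing set, at 0.65 ± 0.16 in WT and 0.00 ± 0.16 in TET2 KO.

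Among genes lower on HFD in both genotypes, Cyp1a1 had the largest average change of the 4 named by size, ahead of Aloxe3, Wnt8a and Alppl2 (-3.02, -2.58 and -2.28). This enzyme, which the aryl hydrocarbon receptor induces, was at 161, 133 and 253 normalized counts in WT on chow, 172, 103 and 78.1 in TET2 KO on chow, 5.81, 12.5 and 12.6 in WT on HFD, and 17.8, 13.6 and 5.41 in TET2 KO on HFD. The chow libraries were all far above the HFD libraries, with a change of -4.16 ± 0.51 in WT and -3.24 ± 0.49 in TET2 KO. Lpl, the lipoprotein lipase that releases fatty acids from circulating fat, changed by -1.14 ± 0.32 and -0.72 ± 0.32, and its inhibitor Angptl4 by -1.17 ± 0.38 and -0.86 ± 0.38. Per2, a repressor of the circadian clock, changed by -1.21 ± 0.28 and -0.62 ± 0.28, and the time of day of sampling was not tested.

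The macrophage genes Marco, a scavenger receptor, and Chil3, a chitinase-like protein of alveolar macrophages, were lower on HFD as well. Chil3 was at 100820.0, 187354 and 159917 normalized counts in WT on chow, 185338, 179838 and 102649 in TET2 KO on chow, 70498, 50986 and 92395 in WT on HFD, and 50427, 103024 and 58733 in TET2 KO on HFD, and HFD libraries were below the chow libraries in WT, with a slight overlap in TET2 KO. Marco changed by -1.25 ± 0.38 and -0.96 ± 0.37. The neuropilin Nrp2, a coreceptor for VEGF-C, the epithelial marker Epcam and Krt19 were lower too, at average changes of -0.68 ± 0.15, -0.65 ± 0.17 and -0.91 ± 0.25. The change of Epcam was -0.37 with size factors made by TMM and -0.36 with those of DESeq2. The 3 monocyte and macrophage members with 12 values, of 16 on the list, summed to between 104139 and 192208 normalized counts on chow. On HFD they summed to between 52551 and 107917. Nearly all of this sum was Chil3, so it describes that gene. The third member, Ccr2, changed with HFD by 1.38 ± 0.33 in WT and -0.68 ± 0.32 in TET2 KO.

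The 97 genes of both pairs crossed in both, 43 of them higher in WT on HFD and in TET2 KO on chow and 54 the reverse. In these genes the HFD change had the opposite sign in the 2 genotypes, and so had the genotype difference on the 2 diets. Besides Tox2, Ccr2, Adamts4 and Bpifa1 they included Ankrd63, with HFD changes of 1.12 ± 0.59 in WT and -1.79 ± 0.60 in TET2 KO, and an interaction of -2.91 that was -1.90 without replicate 1 of TET2 KO on chow. Lists of DNA methylation enzymes, immediate early and stress genes, cell cycle genes, ribosomal proteins and the respiratory chain had no member with 12 values, although 4, 12, 3, 9 and 22 of their genes were listed in some table.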

How the data were processed

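Poly(A) RNA of CD31+ lung cells was sequenced with paired-end reads from 12 mice in 4 groups of 3, grouped by the sample titles. Per the submitters' processing notes and the study's methods, the authors aligned reads to mm10 with HISAT2, counted them with featureCounts and compared groups with DESeq2; tool versions, annotation release and strand setting are not given in the sources used here. The 4 deposited tables hold the authors' raw counts per gene, a normalized signal (count divided by a DESeq2 size factor of that table), FPKM values, and the authors' fold changes and p-values, which were not used beyond checking that every listed unadjusted p-value the authors deposited is under 0.05.

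Tables were joined by gene identifier, and counts listed in more than 1 table were identical. Size factors, which differ between tables, were merged into 1 per library by least squares on the log scale over genes with at least 20 counts (largest residual 0.859%). Library totals came from counts, lengths and FPKM; at 36.7 to 56.8 M reads the spread between mice rather than counting error limits most values. The main test was edgeR 4.0.16 (R 4.3.3), quasi-likelihood, with 1 mean per group, no covariate and no low-count filter, adjusted by Benjamini-Hochberg over the 975 genes. The code was run on simulated counts with interactions in genes drawn at random. That simulation did not imitate how the 975 genes were chosen, so it gives no error rate for them. Alternatives were DESeq2 1.42.0, limma 3.58.1 on log2(normalized count + 1), TMM, DESeq2 or library-total scaling, a mean of at least 10 normalized counts, a replicate block, each pair fitted alone, and leaving out each library.

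Members, the 27 gene lists and tests were chosen with earlier results of these data known. Named genes were the 8 largest called interactions in each direction (highest group mean at least 50, no predicted genes), up to 4 each way of genes changing the same way in a pair, and joined members of the lists. Summaries used Python 3.11.15, pandas 2.3.3 and matplotlib 3.10.9.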

Additional observations from a re-analysis of the deposited data

Results flagged for a closer look

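The effect of TET2 KO differed between chow and HFD by the interaction term in 541 of the 975 genes, all of which had been chosen for differences that make up this term. Of the genes named by size, the difference between the diets was on the log2 scale -3.59 for Wfdc17, -3.28 for Tril, -3.13 for Stox1, -3.06 for Ighv12-3, -3.05 for Sema3a, -2.91 for Tox2, -2.91 for Ankrd63 and -2.89 for Grrp1. In the other direction it was 4.35 for Trim69, 3.91 for Ctcflos, 3.89 for Aoc3, 3.88 for Atcay, 3.83 for Elavl3, 3.66 for Adamts4, 3.32 for Tex29 and 3.29 for Abcg4. The immunoglobulin segment Ighv12-3 rested on replicate 3 of WT on HFD, at 302 normalized counts against 33.4 and 35.5 in the other 2 libraries, and without it the estimate was -1.22 with an edgeR adjusted p of 0.13. No group was large enough to test single libraries as outliers.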

How the results depend on the processing

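The count of 541 genes with an interaction lay between 485 and 547 under the other tests, scalings and the filter on low counts, and was 171 when fitted over the 611 diet-pair genes alone and 457 over the 461 genotype-pair genes alone; the adjustment then ran over those genes. Leaving out single libraries gave 418 to 527. The 120 genotype-pair genes with an average HFD change became 183 with DESeq2 size factors, 168 with TMM and 65 when fitted over that pair alone, without the genes listed only for diet in the adjustment (159 against 158 at an unadjusted p under 0.05), and 81 to 164 without single libraries; the lowest counts, 81, came without replicate 2 of WT on chow and replicate 1 of WT on HFD. The count of 0 diet-pair genes with an average genotype difference became 16 at an unadjusted p under 0.05 and 1 in DESeq2, and 0 to 1 without single libraries. Genes of opposite sign numbered 456 to 457 in the genotype pair and 179 to 181 in the diet pair. For named genes, 45 single values were followed over 19 alternatives each: 0 called values reversed and 56 calls were lost, 14 of them for the average HFD change of Slfn8, 8 each for the interactions of Ighv12-3 and Ednrb, 6 each for Calcrl, Gja5, Oasl2 and Msln, and 2 for Ifi44, while 1 was gained (the interaction of Slfn8, -1.25 without replicate 2 of TET2 KO on chow).

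The sample titles give a replicate number and name no pairing between groups. For samples of the same number, the correlation of deviations from the group means was -0.24 to 0.46 (median 0.04, 18 pairs). For different numbers it was -0.33 to 0.39 (median -0.10, 36 pairs). Deviations of 3 libraries from their own mean are tied to each other, so these values cannot show whether mice were paired. With the replicate number as a block 517 genes had an interaction, 118 genotype-pair genes an average HFD change and 0 diet-pair genes an average genotype difference.

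Values exist only for genes that passed the authors' threshold in both comparisons of a pair, so genes without a difference, and genes with a difference in a single comparison, are not analysed here. With 3 mice in a group, single libraries carry some group means. Tet2 could not be checked in the TET2 KO libraries.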

Other observations

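Further genes were picked after their values were seen and are given without a test. Among the genes higher in TET2 KO on chow and lower on HFD were 10 others known from endothelium, Icam2, Podxl, Myct1, Gata2, Pcdh12, Thsd1, Ly6a, Ly6c1, Efna1 and Arhgef15, with interactions between -2.31 and -1.66. Podxl, a sialomucin of the vessel surface, was at 4579, 4678 and 8684 normalized counts in WT on chow, 18357, 8418 and 6888 in TET2 KO on chow, 30336, 22514 and 14765 in WT on HFD, and 15539, 8615 and 7416 in TET2 KO on HFD. Its WT libraries were lower on chow than on HFD throughout, and TET2 KO on HFD overlapped TET2 KO on chow. Genes of the opposite crossing included 6 of DNA replication and repair, Cdc45, Prim1, Dbf4, Ccne2, Slx4 and Fancm, with interactions between 0.78 and 1.36, and the 4 immunoglobulin joining segments Ighj3, Ighj4, Igkj2 and Igkj4, with interactions between 1.21 and 1.73.

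Of the genes lower on HFD in both genotypes, 12 are known from alveolar macrophages, Marco, Chil3, Siglecf, Spp1, Mrc1, Siglec1, Ear1, Ctsk, Atp6v0d2, Axl, Mertk and Plet1. Their average HFD changes lay between -1.23 and -0.74 and their interactions between -0.20 and 0.88. Mrc1, the mannose receptor, was at 18658, 33585 and 23037 normalized counts in WT on chow, 25802, 28168 and 15044 in TET2 KO on chow, 12904, 8303 and 15205 in WT on HFD, and 8541, 16872 and 11233 in TET2 KO on HFD. Among the genes higher on HFD in both genotypes were 12 of fibroblasts and matrix, Mfap4, Mgp, Bgn, Prelp, Sparcl1, Ecm2, Ddr2, Cthrc1, Itga8, Inmt, Pdgfra and Pdgfrb, with average HFD changes between 0.78 and 2.94.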
